A study of Mus musculus with 18 samples.

Results

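The 9 genes described here are the bone morphogenetic protein (BMP) ligands Bmp2, Bmp3, Bmp4, Bmp5, Bmp6 and Bmp7 and the extracellular BMP modulators Grem1, Chrdl1 and Bmper, chosen by symbol from the 23238 gene symbols counted in each library. RNA was counted in 18 libraries of intestinal stromal cells (IntSCs) and of lymphatic endothelial cells (LECs) from lacteals, the lymphatic vessels of the intestinal villi. All mice were adult C57BL/6J and are labelled PDGFRb+-CreERT2-Tomato+, that is, as carrying Cre-ERT2, a recombinase that tamoxifen switches on, driven by Pdgfrb, and a Tomato reporter, and the mice labelled LATS1/2 KO additionally carried floxed alleles of Lats1 and Lats2 (Lats1f/f Lats2 f/f), the Hippo kinases that phosphorylate and hold back YAP and TAZ. Tamoxifen was injected to activate the Cre. There were 6 WT IntSC, 5 KO IntSC, 4 WT LEC and 3 KO LEC libraries, and KO in LECs means LECs taken from mice whose Cre is driven in PDGFRβ+ stromal and mural cells, not in the LECs themselves. IntSCs were sorted by the Tomato reporter after bead depletion of leukocytes, epithelium and endothelium, and LECs with antibodies to CD31 and podoplanin after depletion of leukocytes and epithelium. A Pdgfrb-driven reporter marks fibroblasts, pericytes and smooth muscle together, so a level in IntSCs is an average over these cells.

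BMPs are secreted ligands of the TGF-β superfamily. They bind pairs of type I and type II serine/threonine kinase receptors, which phosphorylate the receptor SMADs; these join SMAD4 and induce genes such as the Id family. In the intestine, mesenchymal cells of the villus are a known source of BMP ligands that favour epithelial differentiation, while stromal cells near the crypt base secrete antagonists such as gremlin 1 that keep BMP away from the stem cells. BMPs also act on endothelial cells, where ACVRL1 and endoglin are receptor components.

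The genes lie at separate places in the mouse genome (RefSeq annotation of GRCm38.p6, the assembly of mm10, which the submitters' processing notes name). Grem1, Bmp2 and Bmp7 are on 1 chromosome, at chr2:113748675-113758648, chr2:133552159-133562896 and chr2:172868012-172940321. Bmper and Bmp5 share another, at chr9:23223076-23485215 and chr9:75775365-75900316. Bmp3 is at chr5:98854415-98884053, Bmp6 at chr13:38345716-38500314, Bmp4 at chr14:46383525-46390669 and Chrdl1 at chrX:143285674-143394263. The RefSeq promoter table held 5 of the 9 genes (Bmp4, Bmp5, Bmp6, Grem1 and Bmper). The 250 bases before the start of Bmp5 (chr9:75775115-75775364, plus strand) and Grem1 (chr2:113758649-113758898, minus strand) are shown, because these genes were the ligand and the antagonist with the smallest adjusted p between IntSCs and LECs. Capitals mark GGCGCC, a GC-rich element of the kind that BMP SMADs can bind, and GGAAT or ATTCC, the letters of the TEAD element:
Bmp5: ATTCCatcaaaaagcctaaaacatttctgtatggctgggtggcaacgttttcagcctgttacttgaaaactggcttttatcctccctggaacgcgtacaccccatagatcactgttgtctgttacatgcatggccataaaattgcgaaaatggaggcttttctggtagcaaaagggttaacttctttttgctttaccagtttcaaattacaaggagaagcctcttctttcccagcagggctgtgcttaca
Grem1: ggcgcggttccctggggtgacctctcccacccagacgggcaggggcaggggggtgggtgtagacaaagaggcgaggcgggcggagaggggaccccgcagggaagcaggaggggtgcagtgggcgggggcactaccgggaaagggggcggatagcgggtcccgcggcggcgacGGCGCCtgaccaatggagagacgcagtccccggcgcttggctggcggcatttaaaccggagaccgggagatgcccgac
The Grem1 sequence was 72% G and C and held GGCGCC once, whereas the Bmp5 sequence was 42.8% G and C and had none. GGCGCC, which reads the same on both strands, occurred in 9.59% of the 32851 promoter windows of that length. GGAAT, the consensus letters for TEAD, the DNA-binding partner of YAP and TAZ, was searched on both strands as GGAAT and ATTCC. It occurred in 34.2% of all windows and once among the 5, at the far end of the Bmp5 window. The longer form GGAATG, or CATTCC, which contains it, occurred in 12.6% of all windows and in 0 of the 5. A match is a description of letters, and a missing match says only that they are not in these windows.

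Total counts per library ranged from 5361250 to 10549233, and 3 counts corresponded to between 0.284 and 0.560 CPM, the read count scaled to the library size with factors computed over all 18 libraries, which is the scale of all levels below. A value at or under that floor is treated as background. The labelled cell types carried their markers. The summed CPM of 9 stromal markers was 11300 to 17154 in WT IntSCs and 636 to 2105 in WT LECs, and that of 10 LEC markers was 10090 to 13759 in WT LECs and 240 to 408 in WT IntSCs. The targeted transcripts were not lower in the IntSC libraries labelled KO. Lats1 was 17.5 ± 10.3 CPM in WT and 16.03 ± 3.28 CPM in KO IntSCs (SD; log2 fold change -0.12 ± 0.67 SE, edgeR adjusted p = 0.987), and Lats2 was 72.8 ± 23.7 and 114 ± 20.3 CPM (0.65 ± 0.23, adjusted p = 0.252). The libraries read the 3′ end of a transcript, which may lie outside the deleted exons, so these values do not check the labels. Unless stated otherwise, errors are SD over the libraries of a group, errors of log2 fold changes are SE, and p-values measure the spread between these libraries, which the labels do not tie to single mice.

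**Figure D1:**
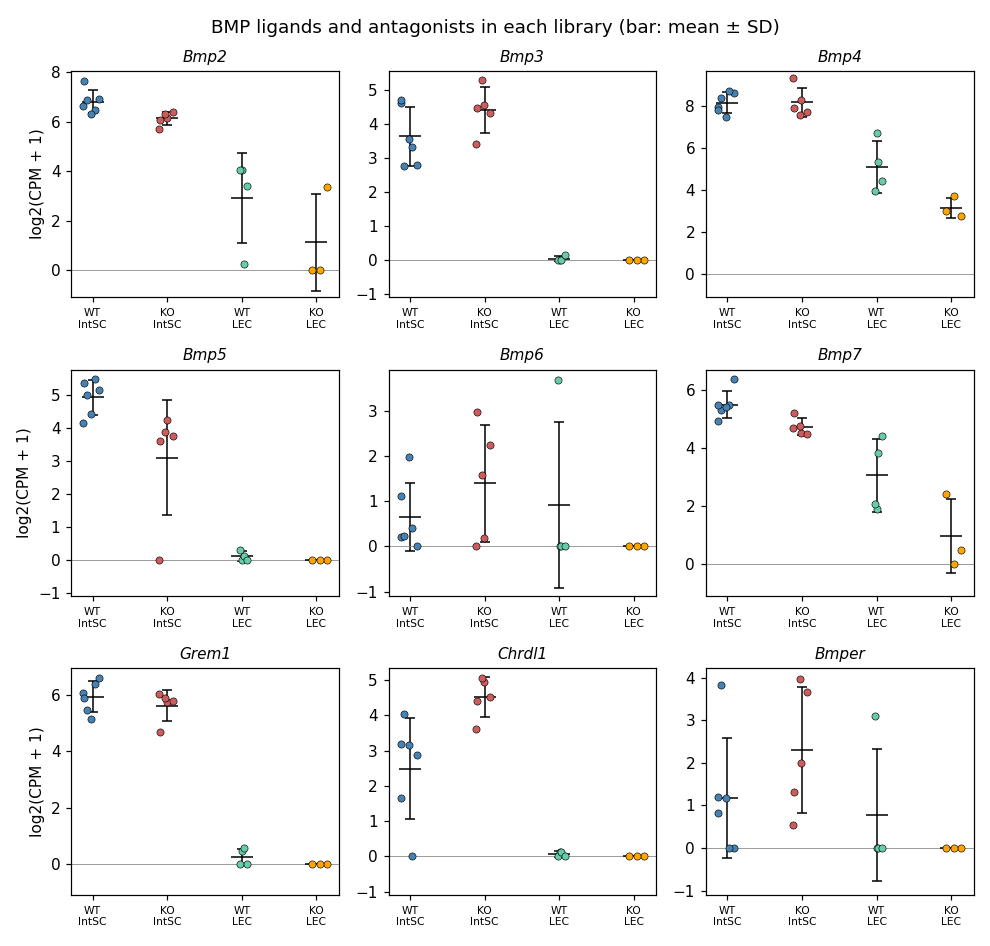
Level of each of the 9 genes in every library, as log2(CPM + 1) on the vertical axis, by group on the horizontal axis. Each point is 1 library and bars are mean ± SD on that scale. Bmp2, Bmp3, Bmp4, Bmp7 and Grem1 were higher in all 11 IntSC libraries than in all 7 LEC libraries, while Bmp6 and Bmper stayed under 15 CPM in all 18.

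The first comparison was of the stromal cells with the lymphatic endothelium in WT mice, to see which compartment held each transcript. All 7 genes that passed the filter on low counts were lower in LECs, Bmp2, Bmp3, Bmp4, Bmp5 and Bmp7 among the ligands and Grem1 and Chrdl1 among the antagonists. By edgeR with Benjamini-Hochberg adjustment over all genes tested, 22.6% of the 12203 genes differed between the cell types, and 12.3% were lower in LECs. The filter itself was passed through the IntSC libraries for genes without LEC reads, so the 7 genes are not a sample of all 9 and their number gives no support of its own.

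Among the ligands, Bmp4 encodes a ligand that acts through BMPR1A and the type II receptors. Its level in WT IntSCs ranged from 178 to 428 CPM with a median of 290.2 CPM, and in the 4 WT LEC libraries it was 104.5, 14.4, 39.2 and 20.4 CPM. All WT LEC libraries lay under the lowest WT IntSC library, but WT LEC 1 stood well above the other LEC libraries. The difference was -2.74 ± 0.51 on the log2 scale (edgeR adjusted p = 0.00137). WT LEC 1 was also the LEC library with the highest summed stromal markers, 2105 CPM against 636 to 736 CPM in the other 3, and without it the difference in Bmp4 was -3.60 ± 0.42 (edgeR adjusted p = 1.9e-05).

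Bmp2, a close relative of Bmp4, ranged from 78.4 to 199 CPM in WT IntSCs with a median of 108 CPM. In the WT LEC libraries it was 15.4, 15.4, 0.187 and 9.60 CPM, so that 3 libraries held clear Bmp2 signal and WT LEC 3 held 2 reads. The groups did not overlap and the difference was -3.53 ± 0.74 (edgeR adjusted p = 0.00310). Bmp7, which can form heterodimers with Bmp2 and Bmp4, ranged from 29.2 to 81.4 CPM in WT IntSCs with a median of 42.5 CPM. It measured 2.76, 3.21, 13.1 and 20.5 CPM in the WT LEC libraries. The lowest IntSC library was above the highest LEC library, with a difference of -2.22 ± 0.61 (edgeR adjusted p = 0.0163). The summed stromal markers of these LEC libraries were, in the same order, 2105, 736, 694 and 636 CPM, and their part in the LEC level of Bmp7 was not tested. In a single fit to all 18 libraries, Bmp7 narrowly missed the threshold (edgeR adjusted p = 0.0540).

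Bmp5 and Bmp3 were close to absent from LECs. Bmp5, a ligand of the Bmp7 subgroup, ranged from 17.0 to 44.4 CPM in WT IntSCs with a median of 32.9 CPM and gave 0, 0.247, 0.0937 and 0 CPM in the WT LEC libraries. These LEC values stood for 3 reads in all 4 libraries together, against 1220 reads in the 6 IntSC libraries. Per read counted, Bmp5 was 399-fold higher in IntSCs, with a 95% exact binomial interval of 136 to 1939 that covers counting error only. The edgeR adjusted p was 2.01e-05. Bmp3, an atypical ligand that can oppose the signal of other BMPs, ranged from 5.85 to 25.2 CPM in WT IntSCs with a median of 9.92 CPM. A single Bmp3 read was counted in WT LECs, in WT LEC 4, and 532 reads in WT IntSCs, a ratio of 522 (interval 93.4 to 20671; edgeR adjusted p = 0.00106).

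Bmp6, a ligand best known for inducing hepcidin in the liver, did not pass the filter in this comparison. It was under 3 CPM in all 6 WT IntSC libraries, with a median of 0.254 CPM. In WT LECs it was at 0 in 3 libraries and at 11.8 CPM, 96 reads, in WT LEC 2. The groups overlapped, and no direction can be read from 1 library.

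Of the modulators, Grem1 encodes gremlin 1, a secreted DAN-family protein that binds BMP2, BMP4 and BMP7 and blocks their access to the receptors. It ranged from 34.8 to 96.7 CPM in WT IntSCs with a median of 62.9 CPM and was 0.381, 0, 0.468 and 0 CPM in the WT LEC libraries. The LEC reads came to 9, of which 4 in WT LEC 1 and 5 in WT LEC 3, just above the floor of 3 counts, against 2511 in IntSCs, a ratio of 274 (95% exact binomial interval 144 to 599.8). The log2 difference was -8.06 ± 0.83 (edgeR adjusted p = 4.03e-06). The summed stromal markers were 2105 CPM in WT LEC 1 and 694 CPM in WT LEC 3, and their part in these reads was not tested.

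Chrdl1 encodes chordin-like 1, a secreted antagonist with chordin-type cysteine-rich repeats. It was low and uneven in WT IntSCs, from 0 to 15.3 CPM with a median of 7.19 CPM, and it gave 0.0951, 0, 0.0937 and 0 CPM in WT LECs. One WT IntSC library was at 0, so the groups overlapped, although 250 reads were counted in IntSCs and 2 in LECs, a ratio of 123 (interval 33.6 to 1019; edgeR adjusted p = 0.0222). Without WT LEC 4 the adjusted p was 0.0536. Bmper, a secreted modulator that can enhance or block BMP signalling depending on its dose and context, did not pass the filter. It was between 0 and 13.1 CPM in WT IntSCs with a median of 1.01 CPM and was counted in WT LEC 2 alone of the LEC libraries, at 7.53 CPM. Of the 7 genes tested, 6 had every WT LEC library under every WT IntSC library (Bmp2, Bmp3, Bmp4, Bmp5, Bmp7 and Grem1), an arrangement found in 11.4% of the genes tested. Among them Bmp3, Bmp5 and Grem1 had 1, 3 and 9 WT LEC reads and passed the filter through the IntSC libraries. The count therefore gives no support of its own.

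The libraries labelled KO gave the same order of the cell types for most of the genes. In KO LECs, 6 of the 9 genes (Bmp3, Bmp5, Bmp6, Grem1, Chrdl1 and Bmper) had no read in any of the 3 libraries. Set against a floor of 3 reads over the group, the IntSC level was 391-fold higher for Grem1 and 180-fold higher for Chrdl1 in KO mice. The corresponding ratios were 173-fold for Bmp3, 88.4-fold for Bmp5, 50.3-fold for Bmper and 19.9-fold for Bmp6. The lower limits of the 95% exact binomial intervals were smaller, from 318-fold for Grem1 to 15.9-fold for Bmp6. These are descriptions of pooled reads, and no test was run between the KO cell types. The order of the group means was WT IntSC, KO IntSC, WT LEC and KO LEC for Bmp2, Bmp5, Bmp7 and Grem1, and KO IntSC, WT IntSC, WT LEC and KO LEC for Bmp3, Bmp4, Chrdl1 and Bmper. WT and KO IntSCs, neighbours in each of these orders, overlapped for all 8 genes. WT and KO LECs overlapped for all but Bmp4, and the lowest IntSC group was clear of WT LECs for Bmp2, Bmp3, Bmp4, Bmp7 and Grem1. For Bmp6 every neighbouring pair overlapped.

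**Figure D2:**
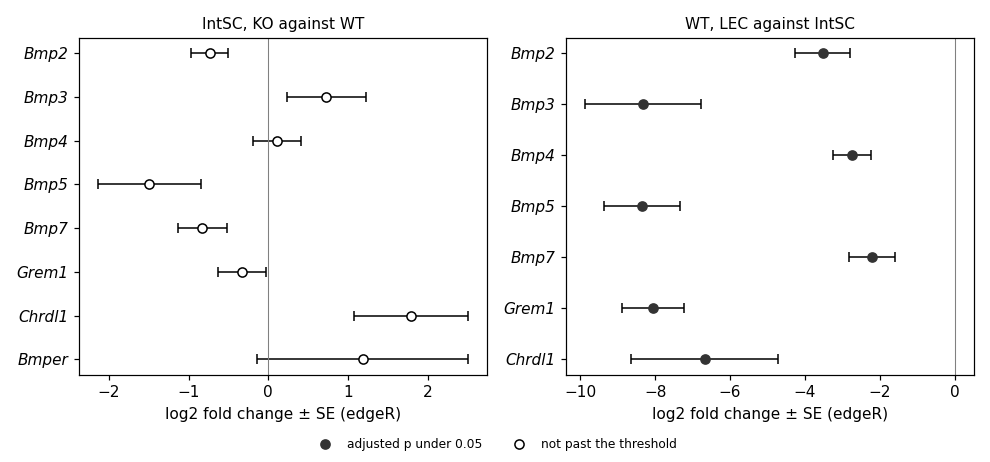
Log2 fold change ± SE by edgeR of the genes that passed the filter, for KO against WT IntSCs (left) and for WT LECs against WT IntSCs (right). Filled points passed an adjusted p of 0.05 and open points did not. All 7 genes on the right were lower in LECs, and none of the 8 on the left passed, with Bmp2, Bmp5 and Bmp7 on the negative side and Chrdl1 on the positive side. The fitted values of Bmp3, Bmp5 and Chrdl1 on the right rest on 3 or fewer LEC reads.

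The second comparison was of KO with WT IntSCs, which asks whether LATS1/2 loss in the stroma altered its BMP transcripts. Of the 9 genes, 8 were tested (Bmp6 was not) and 0 passed the threshold by edgeR, DESeq2 or limma-voom, against 1.47% of the 12421 genes tested by edgeR. At an unadjusted p under 0.05 by edgeR there were 4, Bmp2, Bmp5 and Bmp7 on the lower side and Chrdl1 on the higher side, against 9.81% of all genes tested. Fold changes were negative for 4 genes and positive for 4, with a median of -0.11 beside 0.0026 for all genes. In none of the genes was every KO library on 1 side of every WT library, an arrangement found in 2.83% of genes tested.

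Bmp2 was 70.5, 66.3, 84.5, 52.0 and 78.6 CPM in the KO IntSC libraries, against 78.4 to 199 CPM in WT. Of the KO libraries, 3 lay under every WT library and the others within the low end of the WT range, and WT IntSC 5 lay far above the rest of its group. The mean was 117 ± 43.5 CPM in WT and 70.4 ± 12.4 CPM in KO, a log2 difference of -0.74 ± 0.24 (edgeR adjusted p = 0.158). Bmp7 was 22.1, 36.3, 21.4, 24.9 and 26.2 CPM in KO IntSCs, against 29.2 to 81.4 CPM in WT. All KO libraries except KO IntSC 2 lay under every WT library, and the means were 46.3 ± 18.0 and 26.2 ± 5.99 CPM. The difference of -0.83 ± 0.30 did not pass (edgeR adjusted p = 0.267). Sox6, a transcription factor that the study lists with Bmp7 as a marker of a subepithelial fibroblast subset, was 15.4, 15.9, 33.7, 56.4 and 13.7 CPM in KO IntSCs and ranged from 37.2 to 127 CPM with a median of 70.8 CPM in WT. All KO libraries except KO IntSC 4 lay under every WT library, and the difference of -1.45 ± 0.38 did not pass (edgeR adjusted p = 0.0613). Pdgfra, which the study stained together with Sox6 for the subepithelial subset, was 383 ± 115 CPM in WT and 374 ± 56.9 CPM in KO IntSCs. Every KO library lay inside the WT range of Pdgfra. The sum of 10 markers of the fibroblast subsets was 3185 to 6788 CPM in WT and 5188 to 6952 CPM in KO. Of the 10, 5 were negative and 0 passed the threshold by edgeR. Junb alone made up 2390 ± 798 CPM of the sum in WT and 3330 ± 911 CPM in KO. The part of these markers in Bmp7 was not tested.

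Bmp5 was 18.0, 11.2, 12.7, 0 and 13.8 CPM in KO IntSCs, against 17.0 to 44.4 CPM in WT. Here 4 of the 5 KO libraries lay under every WT library, while KO IntSC 1 lay just above the lowest WT library and KO IntSC 4 had no Bmp5 read at all. The mean was 31.4 ± 10.8 CPM in WT and 11.2 ± 6.74 CPM in KO, a log2 difference of -1.49 ± 0.64 (edgeR adjusted p = 0.422), and without KO IntSC 4 it was -1.17 ± 0.38 (adjusted p = 0.168). Bmp4 was 314, 241, 211, 655 and 192 CPM in KO IntSCs. The libraries lay within the WT range of 178 to 428 CPM apart from KO IntSC 4, the library without Bmp5 reads, which had the highest Bmp4 level of all 18. The difference was 0.10 ± 0.30 (edgeR adjusted p = 0.976), and without KO IntSC 4 its sign turned, at -0.33 ± 0.24 (adjusted p = 0.783).

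Bmp3 was 22.8, 21.4, 19.0, 9.69 and 38.4 CPM in KO IntSCs, against 5.85 to 25.2 CPM in WT. KO IntSC 5 was above every WT library and the others were inside the WT range, with a difference of 0.73 ± 0.49 (edgeR adjusted p = 0.743). Bmp6 reached 6.85, 3.72 and 1.99 CPM in KO IntSC 2, 3 and 5 and was at or under the floor in KO IntSC 1 and 4. It was not tested, and its ranges in WT and KO IntSCs overlapped.

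Among the 3 modulators the fold change was positive for Chrdl1 and Bmper and negative for Grem1, and none passed. Chrdl1 was 29.7, 20.1, 22.1, 11.3 and 32.3 CPM in KO IntSCs, against 0 to 15.3 CPM in WT. All KO libraries but KO IntSC 4 were above every WT library, and the means were 6.65 ± 5.36 CPM in WT and 23.1 ± 8.30 CPM in KO. The log2 difference of 1.79 ± 0.71 did not pass after adjustment (edgeR adjusted p = 0.342). Grem1 was 52.3, 24.5, 54.1, 64.3 and 58.6 CPM in KO IntSCs, where 4 of 5 libraries lay inside the WT range of 34.8 to 96.7 CPM and KO IntSC 2 lay under it (-0.33 ± 0.30, edgeR adjusted p = 0.850). Bmper was 3.01, 1.51, 11.6, 0.447 and 14.7 CPM in KO IntSCs, spread as widely within the group as between the groups (1.18 ± 1.32, edgeR adjusted p = 0.901).

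**Figure D3:**
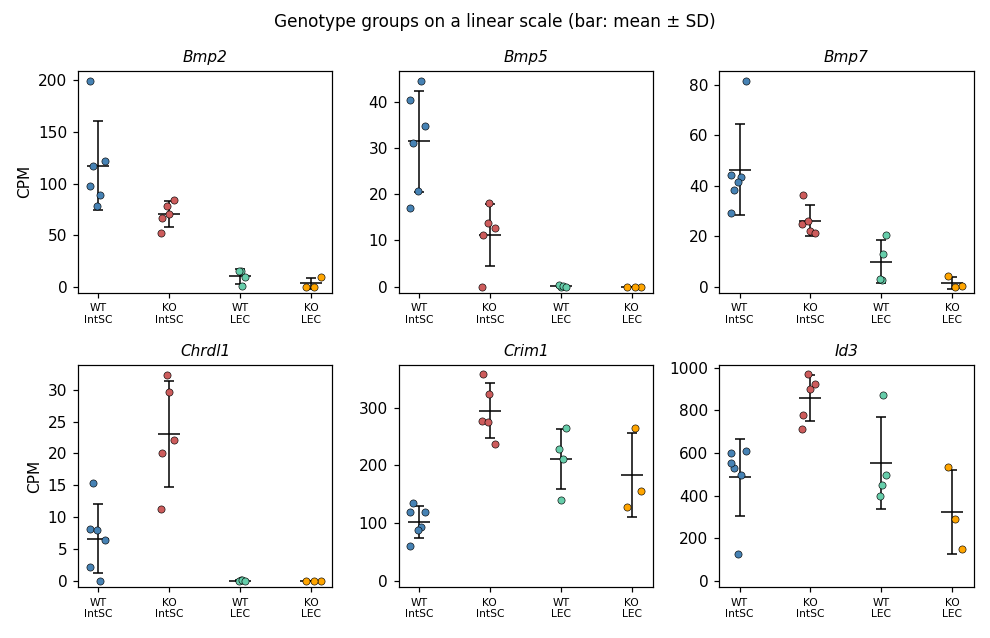
CPM on a linear scale starting near 0 for Bmp2, Bmp5, Bmp7 and Chrdl1, the 4 genes with an unadjusted p under 0.05 in IntSCs, and for Crim1 and Id3 of the same pathway. Each point is 1 library and bars are mean ± SD. The KO IntSC libraries overlapped the WT IntSC libraries for the first 4 genes and lay wholly above them for Crim1 and Id3; Crim1 alone passed the adjusted threshold.

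The rest of the pathway was read from a list of 58 genes, of which 41 were tested in IntSCs. By edgeR 1 passed, beside 1.47% of all genes tested, and 6 had an unadjusted p under 0.05, beside 9.81%. The gene that passed was Crim1, which encodes a transmembrane protein with chordin-type repeats that tethers BMPs at the cell surface and limits their processing and release. Crim1 ranged from 60.4 to 135 CPM in WT IntSCs with a median of 106 CPM, and it was 324, 359, 237, 277 and 274 CPM in the KO libraries. Every KO library was above every WT library, with means of 102 ± 27.4 and 294 ± 47.6 CPM. The log2 difference was 1.52 ± 0.21 (edgeR adjusted p = 2.84e-04), and it ranged from 1.41 to 1.62, always past the threshold, over the other normalisations, filters and tools and each library left out.

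Among the other groups of the pathway, 0 of 7 further ligands, 0 of 7 receptors, 0 of 6 SMADs and 0 of 8 target genes passed by edgeR. DESeq2 and limma-voom each called 1 of the 41 genes, beside 376 and 224 of all 12421 genes tested. The 8 target genes had the highest median of these groups, 0.79 on the log2 scale beside 0.0026 for all genes, with 7 of 8 positive. Id3, an inhibitor of basic helix-loop-helix factors that BMP SMADs induce, was 900, 777, 924, 713 and 970 CPM in KO IntSCs and ranged from 125 to 608 CPM with a median of 541 CPM in WT. All KO libraries were above all WT libraries, and WT IntSC 6 lay far under the rest of its group. The difference of 0.82 ± 0.27 did not pass in the fit of all libraries (edgeR adjusted p = 0.173), but did when WT IntSC 6 was left out (0.63 ± 0.14, adjusted p = 0.0318). Its relatives Id1 and Id4 gave 0.81 ± 0.26 (adjusted p = 0.154) and 1.72 ± 0.60 (adjusted p = 0.252). Id2 lay on the negative side, at -0.19 ± 0.22 (edgeR adjusted p = 0.907). Receptors had a median of -0.29, with 5 of 7 negative, and SMADs a median of 0.27, with 5 of 6 positive. Id genes are also induced by signals other than BMP.

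**Figure D4:**
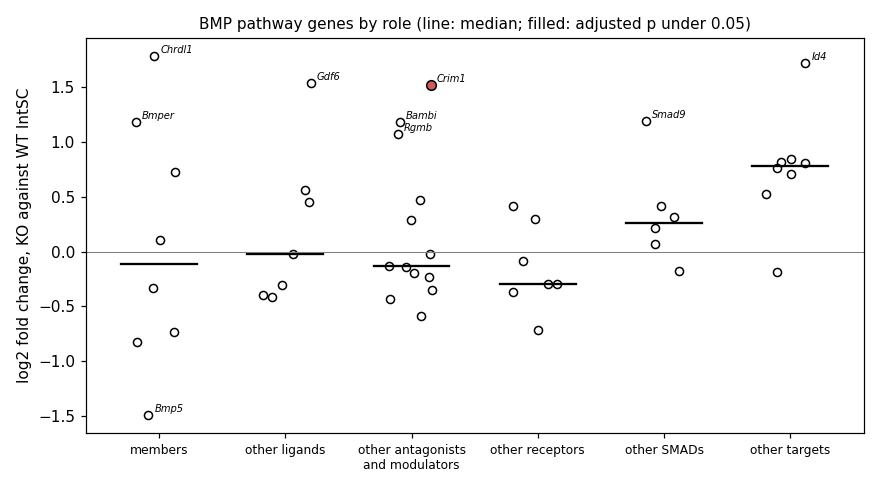
Log2 fold change of KO against WT IntSCs (edgeR) for the tested genes among the 9 and among the 58 other BMP pathway genes, grouped on the horizontal axis by role. Each point is a gene, lines are medians, and the filled point passed an adjusted p of 0.05. Crim1 was the only filled point, and the target genes had the highest median, 0.79.

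Among markers of other cell types in IntSCs, the Paneth cell sum separated the genotypes, and the sums named here for other types overlapped. The summed CPM of 9 stromal markers was 11300 to 17154 in WT and 7766 to 12770 in KO IntSCs, with 8 of 9 negative and 1 past the threshold, and that of 7 blood endothelial markers was 1258 to 2772 and 890.1 to 1352 CPM, with 1 lower past the threshold. The sum of 5 Paneth cell markers was 0.152 to 6.32 CPM in WT and 24.9 to 57.0 CPM in KO (1 of 2 tested was higher, and Pla2g2a had no read in any library), and that of 8 epithelial markers was 0.172 to 113 and 20.5 to 120 CPM (1 of 6 tested was higher). The sum of 6 mural markers was 268 to 522 CPM in WT and 257 to 523 CPM in KO, with 1 lower past the threshold. Their part in the values of the BMP genes was not tested. In sorted bulk samples fewer cells of a type and less RNA per cell cannot be told apart.

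The third comparison was of LECs from KO and WT mice, in which the LECs were not the target of the Cre. Only Bmp2, Bmp4 and Bmp7 were abundant enough to be tested, and 0 passed by edgeR, DESeq2 or limma-voom, against 0.0658% of the 10639 genes tested by edgeR. Bmp4 alone had an unadjusted p under 0.05, as did 7.87% of all genes tested. It was 5.86, 7.12 and 12.0 CPM in the KO LEC libraries, all under the lowest WT LEC library at 14.4 CPM, an arrangement found in 6.45% of genes. The mean was 44.6 ± 41.3 CPM in WT and 8.34 ± 3.26 CPM in KO, with a log2 difference of -2.34 ± 0.97 (edgeR adjusted p = 0.542). Without WT LEC 1 the difference in Bmp4 was -1.49 ± 1.36 (edgeR adjusted p = 0.9996), whereas a single fit to all 18 libraries, in which IntSC libraries also set the spread, gave -2.42 ± 0.60 and passed (adjusted p = 0.0286). The summed stromal markers were 636 to 2105 CPM in WT LECs and 304 to 571 CPM in KO LECs, with all 9 genes negative, a median of -1.34 and none past the threshold, and the sum of 5 Paneth cell markers was 0 to 0.740 CPM in WT LECs and 11.8 to 62.0 CPM in KO LECs, without overlap (0 of 1 tested passed by edgeR, and Pla2g2a had no read). The sum of 7 blood endothelial markers (587 to 944 and 524 to 567 CPM) was also lower in KO LECs without overlap. So was that of the 10 fibroblast subset markers (1215 to 1785 and 661 to 714 CPM), which was mostly Junb (1285 ± 248 and 406 ± 66.7 CPM). Of the 10, 7 were tested, with 5 negative, 2 positive and 1 lower past the threshold by edgeR. Serpina3n went the other way (86.7 ± 54.2 and 174 ± 34.8 CPM). The part of these marker sums in Bmp4 was not tested.

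Bmp2 was 9.35 CPM in KO LEC 1 and 0 in the other KO LEC libraries, a spread that covers most of the WT range (-1.65 ± 2.42, edgeR adjusted p = 0.9999). Bmp7 was 0.419, 4.34 and 0 CPM in KO LECs, against 2.76 to 20.5 CPM in WT (-2.54 ± 2.28, edgeR adjusted p = 0.9999). KO LEC 1 carried all 67 Bmp2 reads of its group and KO LEC 2 carried 42 of the 45 Bmp7 reads. Of the 58 other pathway genes, 28 were tested and 0 passed by edgeR, with 5 at an unadjusted p under 0.05, beside 7.87% of all genes tested. DESeq2 called 2 (Eng and Rgma), beside 309 of 10639 genes, and limma-voom called 0. The single edgeR fit to all 18 libraries tested 44 of the 58 and called 6, all lower in KO LECs (Acvrl1, Bmpr1a, Eng, Gdf10, Rgma and Smad4, adjusted p from 0.00561 to 0.0487). That fit called 538 of 14015 genes, of which 416 were lower. The endothelial receptor components gave values on the lower side, with Eng at 434 ± 101 CPM in WT and 195 ± 53.8 CPM in KO LECs (-1.08 ± 0.30, edgeR adjusted p = 0.291) and Acvrl1 at 154 ± 55.8 and 44.4 ± 27.4 CPM (-1.71 ± 0.50, adjusted p = 0.348). These genes were named after their values were seen. For both, all 3 KO libraries were under all 4 WT libraries, an arrangement found in 6.45% of genes tested. The sum of 7 blood endothelial markers was also lower, at 587 to 944 CPM in WT and 524 to 567 CPM in KO LECs. Its part in Eng and Acvrl1 was not tested.

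The genotype differences in the 2 cell types were then compared directly, by an interaction over all 18 libraries, coded as the log2 difference in IntSCs minus that in LECs. All 9 genes were tested and 0 passed by edgeR, against 1.70% of the 14015 genes tested. By limma-voom 0 passed, and by DESeq2 2 did (Bmp4 and Bmp6), where DESeq2 called 1023 of the 14015 genes. At an unadjusted p under 0.05 by edgeR there were 4 (Bmp4, Bmp6, Grem1 and Bmper), against 15.8% of all genes. Bmp4 came closest, at 2.52 ± 0.72 (edgeR adjusted p = 0.0802), from a difference of 0.098 in IntSCs and -2.42 in LECs in the same fit. It passed when WT LEC 2 (adjusted p = 0.0334) or WT LEC 4 (0.0433) was left out and had an adjusted p of 0.130 without WT LEC 1. Bmp2 passed only without KO LEC 1 (adjusted p = 0.0138) and Bmp7 only without KO LEC 2 (0.0366), the libraries that hold nearly all their KO LEC reads. For the 6 genes with no read in KO LECs the fitted size has no meaning as a fold. Among them, all LEC reads of Bmp6 (96) and of Bmper (61) came from WT LEC 2, so their interaction values rest on 1 LEC library.

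Of the other pathway genes, 3 of 44 passed in the interaction by edgeR, 8 by DESeq2 and 1, Crim1, by limma-voom. Over all 14015 genes, the same tools called 238, 1023 and 143. For Crim1 the interaction was 1.73 ± 0.39 (edgeR adjusted p = 0.0201), where the IntSC difference was 1.52 and the LEC libraries overlapped at 140, 228, 211 and 265 CPM in WT and 155, 128 and 265 CPM in KO. Bmpr1a, the type I receptor that binds BMP2 and BMP4, was level in IntSCs (29.9 ± 7.24 and 24.4 ± 7.72 CPM in WT and KO). In LECs it was 12.4, 5.92, 16.5 and 0.100 CPM in WT and 0, 0.103 and 0.124 CPM in KO. WT LEC 4 was as low as the KO libraries, so the LEC groups overlapped. The KO LEC values were 2 reads, a ratio of 106 to the 355 WT reads (95% exact binomial interval 29.1 to 877), and the interaction passed by edgeR (adjusted p = 0.0205) but not by limma-voom (0.168). Rgma, a BMP co-receptor, was 162 ± 36.5 and 160 ± 38.4 CPM in WT and KO IntSCs. In LECs it was 11.6, 12.3, 0 and 52.2 CPM in WT and 0.558, 0 and 0 CPM in KO. WT LEC 3 had no Rgma read, like KO LEC 2 and KO LEC 3, and the interaction narrowly passed by edgeR (adjusted p = 0.0453) but not by limma-voom (0.237). The summed stromal markers were 636 to 2105 CPM in WT LECs and 304 to 571 CPM in KO LECs. Their part in the LEC values of Bmpr1a and Rgma was not tested.

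Of the 41 other pathway genes tested between WT LECs and WT IntSCs, 5 were higher and 15 lower in LECs. The higher genes with the smallest p were Eng, the endoglin co-receptor (434 ± 101 against 170 ± 22.2 CPM; 1.35 ± 0.21, edgeR adjusted p = 1.80e-04), Smad5, a receptor SMAD (255 ± 71.1 against 119 ± 24.1 CPM), and Crim1 (211 ± 52.4 against 102 ± 27.4 CPM). The lower genes with the smallest p were Nbl1, a DAN-family antagonist (139 ± 41.0 against 760 ± 55.5 CPM; -2.44 ± 0.23, adjusted p = 1.40e-06), Fstl1, a secreted follistatin-like protein (78.7 ± 28.4 against 286 ± 48.6 CPM), and the inhibitory Smad7. Smad7 had no read in WT LECs and was 306-fold higher in WT IntSCs when set against a floor of 3 reads over the group. The lower limit of its 95% exact binomial interval was 248-fold, which covers counting error only. By role, 5 of 7 further ligands, 7 of 14 further antagonists and modulators and 0 of 7 receptors were lower in LECs, beside 12.3% of all genes tested. These shares were not tested against each other. Genes with almost no LEC reads passed the filter through the IntSC libraries, such as Inhba and Inhbb (2 WT LEC reads each) and Kcp (0). The shares therefore give no support of their own.

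Within the IntSC libraries the 9 genes did not vary as a block. Pearson's r of their deviations from the group mean, over the 11 IntSC libraries and the 7 genes with a mean of at least 10 CPM, ranged from -0.69 (Bmp3 with Bmp4) to 0.50 (Bmp2 with Bmp5, and Bmp4 with Grem1). Of 8731 genes ranked, those most alike in their deviations were Mif for Bmp4 (r = 0.966), Pyroxd1 for Bmp2 (0.927), Atp11b for Bmp5 (0.986), Ybx1 for Bmp7 (0.919) and Cep295 for Bmp3 (0.963). For the antagonists they were Rap2a for Grem1 (0.957) and Cmas for Chrdl1 (0.932). The points share library depth and composition, and each gene is the highest of 8731, so these are descriptions without a test.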

How the data were processed

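RNA was sequenced with the QuantSeq 3′ kit from sorted IntSCs and LECs. The deposited files hold raw counts of reads per gene symbol, 1 table per library, which the authors made without normalisation. The submitters' processing notes name mm10, Bowtie2 and edgeR, and the study's methods name TopHat and Cufflinks; the counting program and annotation are not given in the sources used here. Counting by 3′ reads reflects transcript number rather than length, and near-identical 3′ ends cannot be separated. Of the 23282 rows, 35 symbols stood on more than 1 row and were summed, none of them among the 9 genes.

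Sample titles gave the group and the replicate number of each library. Counts were tested with edgeR 4.0.16 (TMM factors, filterByExpr, robust quasi-likelihood fit, Benjamini-Hochberg over all genes tested, adjusted p under 0.05) in R 4.3.3, with the groups compared alone in each fit and all 4 groups for the interaction. SEs were derived from the F statistic. CPM used TMM factors over all 18 libraries. Intervals of read ratios are exact binomial intervals (scipy 1.17.1) and, like the floor of 3 counts, cover counting error only. The procedure was tested on simulated data, in which 200 genes above 20 CPM were changed by 2 on the log2 scale. It recovered 91% of them in the IntSC comparison, 57.5% between the WT cell types and 34% in the LEC comparison. For changes of that size, a gene that did not pass therefore says less in LECs than in IntSCs. Smaller changes and genes at or under 20 CPM were not simulated, so these shares do not cover them. The fitted changes of Bmp2, Bmp5, Bmp7 and Chrdl1 in IntSCs were all smaller in size than 2. Each of the following was tried in turn: RLE or upper-quartile factors, a filter of only 1 read, a filter of a mean count of 10, DESeq2 1.42.0, limma-voom (limma 3.58.1), the replicate number as a block, all 4 groups in 1 fit, and each library left out.

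The genes named were the 9 genes, up to 3 other BMP pathway genes per comparison and direction with the smallest p past the threshold, and the genes most alike to each. Id1, Id2, Id3, Id4, Eng, Acvrl1, Gdf10, Smad4, Sox6, Pdgfra, Junb and Serpina3n in the genotype comparisons were named after their values were seen. So were Inhba, Inhbb and Kcp between the WT cell types. The 9 genes, the pathway and marker lists and the tests were chosen with earlier results of these data known.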

Additional observations from a re-analysis of the deposited data

Results flagged for a closer look

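In each group of 4 to 10 libraries, a library far from the others was looked for among 60 combinations of gene or marker list and group by Dixon's test. About 3 are given by chance and 11 were found. In WT IntSCs, Bmp2 was 199 CPM in WT IntSC 5 (78.4 to 122 CPM in the others), Bmp7 was 81.4 CPM in WT IntSC 3 (29.2 to 44.2 CPM), and Bmper was 13.1 CPM in WT IntSC 2 (0 to 1.31 CPM). In KO IntSCs, Bmp4 was 655 CPM in KO IntSC 4 (192 to 314 CPM) and Rgma was 93.2 CPM in KO IntSC 3 (163 to 186 CPM). In WT LECs, WT LEC 2 held Bmp6 at 11.8 CPM and Bmper at 7.53 CPM, both at 0 in the other 3 libraries, and the 1 Bmp3 read of WT LEC 4 gave 0.100 CPM. Among the marker lists, the stromal sum was 2105 CPM in WT LEC 1 (636 to 736 CPM), the epithelial sum was 113 CPM in WT IntSC 6 (0.172 to 25.2 CPM), and the Paneth sum was 0.740 CPM in WT LEC 2 (0 to 0.100 CPM).

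The genotype difference in IntSCs differed from that in LECs for Crim1 (1.73 on the log2 scale), Bmpr1a (6.23) and Rgma (6.68) by edgeR's interaction test. The sizes for Bmpr1a and Rgma rest on 2 and 4 reads in KO LECs. Crim1 and Bmpr1a passed with any single library left out, whereas Rgma did not in 15 of the 18 cases. Bmpr1a and Rgma did not pass by limma-voom (adjusted p = 0.168 and 0.237), and none of the 3 passed with the replicate block (adjusted p of 0.413 for Crim1, 0.704 for Bmpr1a and 0.822 for Rgma).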

How the results depend on the processing

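Over the alternatives run, the fold changes of the 9 genes kept their direction and side of the threshold in 531 of 547 cases. In IntSCs, 183 genes passed in the main analysis, 376 with DESeq2 and 27 with all 4 groups in 1 fit (99 to 186 with a library left out, lowest without KO IntSC 3), and 0 of the 9 genes in any of these. Bmp4 turned sign with limma-voom (-0.013), the replicate block (-0.13), without WT IntSC 6 (-0.0056) and without KO IntSC 4 (-0.33), within a range of -0.33 to 0.25 with a library left out. In LECs the 7 genes became 32 without the filter, 20 at a mean count of 10, 309 with DESeq2, 12 with limma-voom, 3 with the block and 538 in the 4-group fit (0 without WT LEC 3 to 16 without KO LEC 2), where 1 of the 9 genes, Bmp4, passed. Between WT cell types 2763 genes became 1596 with the block (2233 to 2889 with a library left out); of the 9 genes 7 passed, or 6 to 7 with a library left out and 5 with the block, and of the other pathway genes 20, or 10 with the block (2 higher, 8 lower). For the interaction 238 genes became 1023 with DESeq2, 143 with limma-voom and 16 with the block (161 to 461, the highest without KO LEC 2), and 2 of the 9 genes passed with DESeq2 (0 to 1 with a library left out). The interaction of Bmp5 was -1.85 with limma-voom. With a library left out, Rgma ranged from -0.087 to 0.12 in IntSCs and Crim1 from -0.51 to 0.075 in LECs. The cause of these changes was not tested.

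Replicate numbers did not pair the samples: the mean correlation of deviations between same-numbered libraries was 0.012 in IntSCs, -0.0078 in LECs and 0.029 between WT cell types. With the replicate block 0 of the 9 genes passed in IntSCs and in LECs and 5 in the WT comparison, where Bmp2 (adjusted p = 0.0654) and Chrdl1 (0.200) no longer passed, nor did Crim1 (0.0954). No interaction of the pathway genes passed with the block, Crim1 having an adjusted p of 0.413. Few reads limit Bmp6, Bmper and, in LECs, Bmp3, Bmp5, Grem1 and Chrdl1, for which sizes rest on pooled reads.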
